A study of Mus musculus with 6 samples.

Results

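*Slc43a2* and 9 other amino acid transporter genes were followed in CD4-CD8- double-negative (DN) thymocytes of mice with and without extra NFATc1. The 10 genes, out of 41457 in the deposited tables, are the 3 members of the SLC43 family (*Slc43a1*, *Slc43a2*, *Slc43a3*), the CD98 heavy chain *Slc3a2* with its light chains *Slc7a5* and *Slc7a6*, the cationic transporter *Slc7a1*, and the glutamine and neutral amino acid carriers *Slc1a5*, *Slc38a1* and *Slc38a2*. *Slc43a2* was chosen for its fall in the Nc1Bio libraries, so its values are a description and carry no test. The other 9 were listed by name for their role, and all 10 passed the filter on low counts that left 12224 genes.

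BirA mice (labelled WT) express the BirA biotin ligase from the Rosa26 locus. Nc1Bio mice (labelled NFATc1 overexpression) carry BirA as well and, in addition, a BAC transgene that spans the murine *Nfatc1* locus and adds a biotin tag to the C terminus of NFATc1/A. Both groups therefore share the ligase and differ in the transgene. Per the methods the mice were a few weeks old, matched for age and sex, and on a C57/B6 background. The DN cells were what remained after magnetic depletion with antibodies to CD4 and CD8. They were not sorted for a lineage. Each group had 3 libraries, of poly(A) RNA, and nothing in the labels tells whether each came from its own animal. All p-values below therefore measure the spread between these libraries, which may be technical. Depth was 11845952 to 15393763 unique gene reads per library. *Nfatc1* itself was 126 ± 27.9 CPM (CPM, unique gene reads scaled by library size with TMM factors; mean ± SD, n = 3) in BirA and 573 ± 23.2 in Nc1Bio, which is 2.19 on the log2 scale (edgeR quasi-likelihood test, Benjamini-Hochberg adjusted p = 0.0141). That call did not survive leaving out any 1 Nc1Bio library or BirA replicate 2 (adjusted p of 0.0618 to 0.141), while the log2 fold change stayed between 2.16 and 2.22 in those fits.

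T cells and their precursors import most essential amino acids through a small set of carriers. LAT3 and LAT4, encoded by *Slc43a1* and *Slc43a2*, are facilitated carriers of the branched-chain amino acids, phenylalanine and methionine that need neither sodium nor a partner chain, whereas SLC43A3 carries purine nucleobases. LAT1 (*Slc7a5*) and y+LAT2 (*Slc7a6*) reach the membrane as partners of the CD98 heavy chain and exchange one amino acid for another, and the sodium-coupled carriers ASCT2 (*Slc1a5*), SNAT1 (*Slc38a1*) and SNAT2 (*Slc38a2*) bring in glutamine and small neutral amino acids.

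*Slc43a2* (ENSMUSG00000038178) lies on the plus strand of GRCm38 at chr11:75531694-75577575, and its 11 annotated transcripts cover 10042 exonic bases. RefSeq (build GRCm38.p6) gives it 2 start sites, the first of which is the first base of the gene in the deposited tables. The 250 bases before that start, chr11:75531444-75531693 on the plus strand, are shown because the compared genotypes differ in the dose of an NFAT factor. Capitals mark the NFAT core letters GGAAA or, for the other strand, TTTCC.

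Slc43a2 upstream: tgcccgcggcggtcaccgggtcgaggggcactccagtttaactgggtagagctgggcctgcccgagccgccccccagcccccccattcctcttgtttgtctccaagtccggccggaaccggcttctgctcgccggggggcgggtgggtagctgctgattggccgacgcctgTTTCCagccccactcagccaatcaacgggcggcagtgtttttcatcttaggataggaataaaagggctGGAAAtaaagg

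The windows searched ran from 250 bases before to 50 bases after each RefSeq start, and both strands were read. The first *Slc43a2* window held GGAAA 2 times, beginning 11 bases before the start on the plus strand and 79 bases before it on the minus strand, and the window of the second start, at chr11:75532112, held it 1 time. GGAAA stood in 61.3% of all 32851 promoter windows, so its presence here is the common case. The RefSeq table held 9 windows of 6 of the 10 genes. Besides *Slc43a2*, GGAAA was present in 1 of the windows of *Slc7a1*, with 3 matches, the E-box letters CACGTG were present 1 time in *Slc43a1* (7.15% of all promoters), and the amino acid response letters TGATGNAA were in none of the 9 windows (3.97% of all promoters).

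*Slc43a2* stood at 67.9, 76.5 and 64.3 CPM in the BirA libraries and at 36.0, 35.2 and 35.01 CPM in the Nc1Bio libraries. Every Nc1Bio library lay below every BirA library, and the lowest BirA value was 1.79 times the highest Nc1Bio value. The group means of 69.6 ± 6.26 and 35.4 ± 0.514 CPM differed by a log2 fold change of -0.98 (SE 0.10), and the mean fell by 49.1% from BirA to Nc1Bio. The 3 Nc1Bio libraries were close to each other, with a coefficient of variation of 1.45% against 8.99% in BirA. The reads behind these levels were 941, 1195 and 926 in BirA and 432, 464 and 454 in Nc1Bio. Sampling of so few reads alone would spread libraries by more than 1.45%, so the closeness is not read as a trait of the Nc1Bio group.

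**Figure D1:**
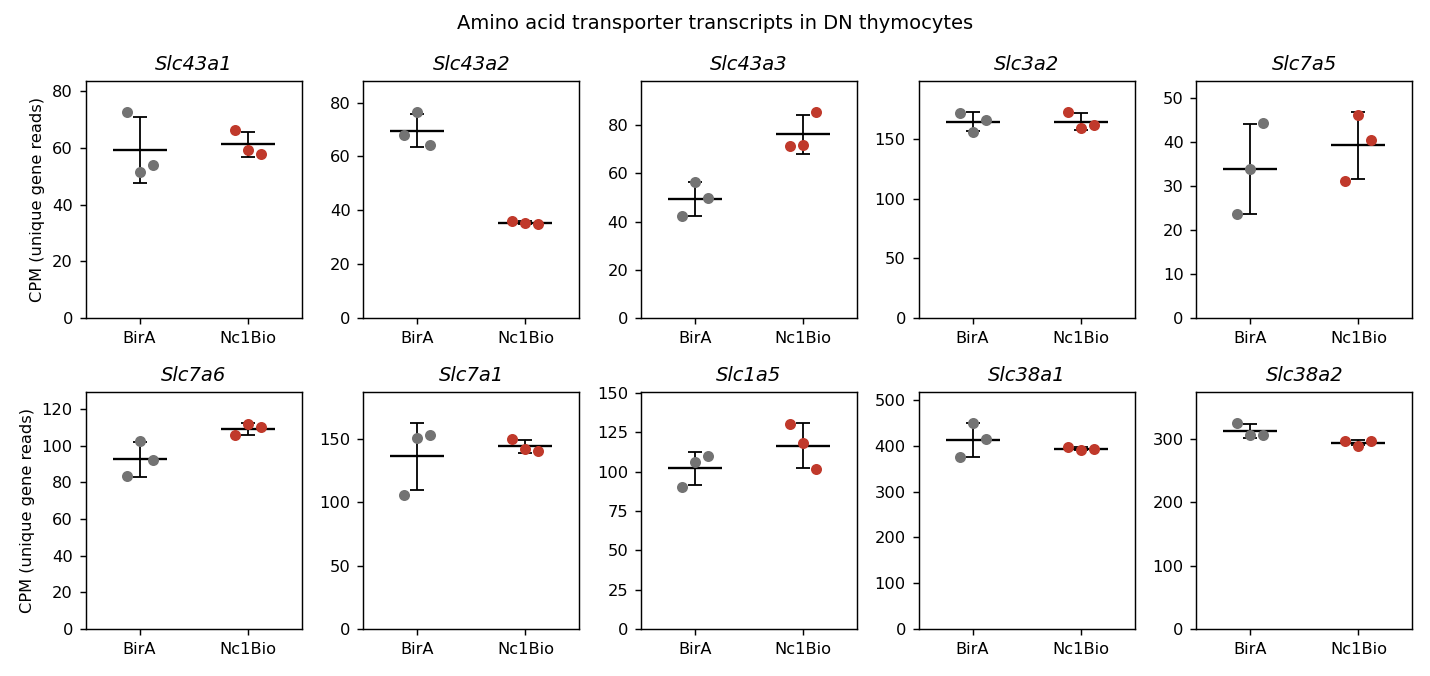
Level of each of the 10 transporters in CPM of unique gene reads (vertical axes from 0, a separate scale per gene), with 1 point per library, the mean as a line and the SD as a bar, in BirA (grey) and Nc1Bio (red). The *Slc43a2* points lie at 64.3 or more in BirA and at 36.0 or less in Nc1Bio, the *Slc43a3* points at 56.4 or less and at 71.3 or more, and of the remaining genes only *Slc7a6* and *Slc38a2* do not overlap between the groups.

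The mean of *Slc43a2* was lower in Nc1Bio in each class of read the tables separate. Unique exon reads gave 68.1 ± 5.73 CPM in BirA and 34.9 ± 0.302 in Nc1Bio, and exon-exon junction reads gave 10.4 ± 0.774 and 5.83 ± 0.750, both without overlap between the groups. Intron reads were few, 66 in the BirA libraries and 20 in the Nc1Bio libraries together, and their per-library levels overlapped. Total gene reads, which also count reads not unique to the gene, gave 51.0, 56.4 and 48.0 CPM in BirA and 27.4, 26.9 and 25.6 in Nc1Bio, a log2 fold change of -0.96. All of these come from the same 6 libraries, so they describe the same difference.

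An antisense transcript, *Gm45606*, covers chr11:75530277-75533071 on the minus strand and shares 1378 bases with the 5′ end of *Slc43a2*, the first start included. It had 74, 95 and 141 unique reads in BirA and 56, 47 and 43 in Nc1Bio, a log2 fold change of -0.88 (SE 0.35; unadjusted p = 0.0359 and adjusted p = 0.390 in edgeR's fit across all genes). Without BirA replicate 3 the log2 fold change of *Gm45606* was -0.57. No source used here states whether the counting used strand. At *Slc7a5*, which lies inside a gene model on the other strand, only exon-exon junction reads were counted as unique. The other reads there were thus not separated by strand. If the same held here, reads of bases shared with *Gm45606* were left out of the unique reads, junction reads apart. Whether it held here was not tested. Unique reads were 93.3% to 97.2% of the total gene reads of *Slc43a2*.

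Markers of other cells were read beside this gene, because the DN fraction is a mixture and, in bulk RNA, fewer cells of a type and less RNA per cell cannot be told apart. The summed level of 14 DN thymocyte markers, with *Thy1*, *Il2ra* and *Ptcra* present in every library and 12 of the 14 higher in Nc1Bio, was 7888 to 9086 CPM in BirA and 8946 to 10516 in Nc1Bio. The 3 co-receptor genes that the depletion targets summed to 22.2 to 52.6 and 21.1 to 41.6 CPM. B cell markers summed to 147 to 410 CPM in BirA and 60.6 to 99.5 in Nc1Bio, lower for 9 of 9 tested genes, and markers of NK and innate-like lymphocytes to 771 to 999 and 365 to 510 CPM, lower for 10 of 10 tested genes. Most of the NK and innate-like sum was 1 gene, *Gzma*, at 554 to 654 CPM in BirA and 274 to 468 in Nc1Bio. The B cell sum and the NK and innate-like sum separated the groups as *Slc43a2* did. No marker of either list was at 0 in every library, and their part in the *Slc43a2* difference was not tested. The macrophage and monocyte markers, lower for 9 of 9 tested genes, summed to 784, 1169 and 147 CPM in BirA and to 324, 323 and 683 CPM in Nc1Bio. The granulocyte markers, lower for 8 of 10 tested genes, summed to 512, 9625 and 492 CPM in BirA and to 411, 3027 and 5810 CPM in Nc1Bio. Both sums overlapped between the groups, and their part was not tested. BirA replicate 2 had the highest of each and also the highest *Slc43a2* level. Nc1Bio replicate 3, at 683 and 5810 CPM, had the highest of each within Nc1Bio. Its *Slc43a2* level was 35.01 CPM, close to the 36.0 and 35.2 CPM of Nc1Bio replicates 1 and 2. BirA replicate 3 had the lowest macrophage and monocyte sum, with *Slc43a2* above every Nc1Bio library. Erythroid markers, higher for 8 of 8 tested genes, overlapped between the groups, at 20080 to 66155 CPM in BirA and 17668 to 97671 in Nc1Bio, as did dendritic cell markers (131 to 207 and 154 to 192) and thymic epithelial markers (40.3 to 57.6 and 45.3 to 63.9).

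Of the 9 other transporters, 7 had a higher and 2 a lower fitted level in Nc1Bio. edgeR called none of them at an adjusted p under 0.05, with a background of 0.00818% of all 12224 genes called higher and 0% called lower. At an unadjusted p under 0.05, 2 of the 9 were higher (background 4.31%) and 0 were lower (background 7.66%). DESeq2, the tool of the study, called 1 of the 9, higher in Nc1Bio, where it called 0.32% of the 13129 genes with an adjusted p higher and 2.16% lower. The groups did not overlap for 2 genes that were higher (background 8.45%) and for 1 that was lower (background 9.98%). The median log2 fold change of the 9 was 0.08, with a range of -0.09 to 0.62, beside -0.0026 over all tested genes.

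**Figure D2:**
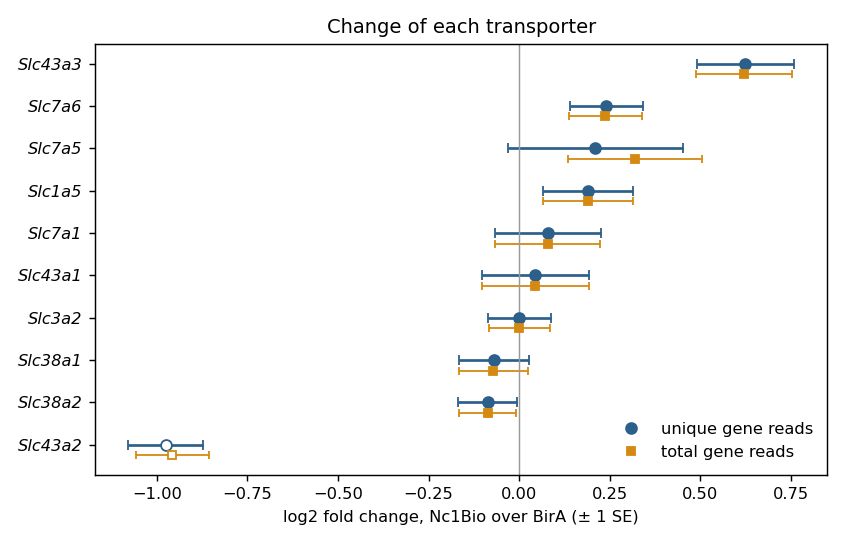
Log2 fold change of each transporter, Nc1Bio over BirA, with 1 SE on either side, from unique gene reads (circles) and total gene reads (squares) in edgeR. *Slc43a2*, drawn open because it was selected on this contrast, lies at -0.98, *Slc43a3* at 0.62, and the remaining 8 between -0.09 and 0.24 by unique reads.

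*Slc43a3*, the family member that transports purine nucleobases, was higher in every Nc1Bio library, opposite to *Slc43a2*. It lies at chr2:84936579-84958509 and stood at 42.2, 56.4 and 49.6 CPM in BirA and at 71.3, 71.8 and 85.4 CPM in Nc1Bio. The groups did not overlap, and the nearest values differed by a factor of 1.26. The log2 fold change was 0.62 (SE 0.13), with an unadjusted p of 0.00177 and an adjusted p of 0.176 in edgeR, and DESeq2 called it at an adjusted p of 0.00950. Leaving out any 1 library gave log2 fold changes of 0.52 to 0.73. The B cell and the NK and innate-like marker sums given above separated the same libraries, and their part in this difference was not tested. Exon reads and junction reads separated the groups in the same direction, and the few intron reads (25 in BirA, 47 in Nc1Bio) did not.

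*Slc43a1*, its near neighbour on the same chromosome (chr2:84838850-84863594), gave no separable difference. It stood at 72.6, 51.4 and 54.0 CPM in BirA and at 66.2, 59.4 and 58.0 CPM in Nc1Bio, with the highest and the lowest values both in BirA. The log2 fold change was 0.04 (SE 0.15; edgeR, Benjamini-Hochberg adjusted p = 0.922), and its sign depended on which library was left out.

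Set against each other per exon length, the 3 SLC43 genes differed in make-up between the groups. Their summed CPM overlapped, but it is not scaled by length and is not the total behind the shares below. The summed SLC43 level of unique gene reads was 183, 184 and 168 CPM in BirA and 173, 166 and 178 in Nc1Bio. *Slc43a2* made up 24.2%, 26.2% and 24.1% of SLC43 exon reads per kb in BirA and 11.6%, 11.8% and 11.1% in Nc1Bio. *Slc43a3* went from 33.8%, 43.8% and 42.6% to 51.9%, 54.6% and 59.6%. *Slc43a1* overlapped, at 42.0%, 30.02% and 33.3% in BirA and 36.5%, 33.6% and 29.3% in Nc1Bio. These shares contain the values *Slc43a2* was chosen by and are given without a test. Because *Slc43a2* is part of the total, its lower level by itself raises the shares of *Slc43a1* and *Slc43a3*. The separation of the *Slc43a3* shares is therefore not a result apart from *Slc43a2*.

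**Figure D3:**
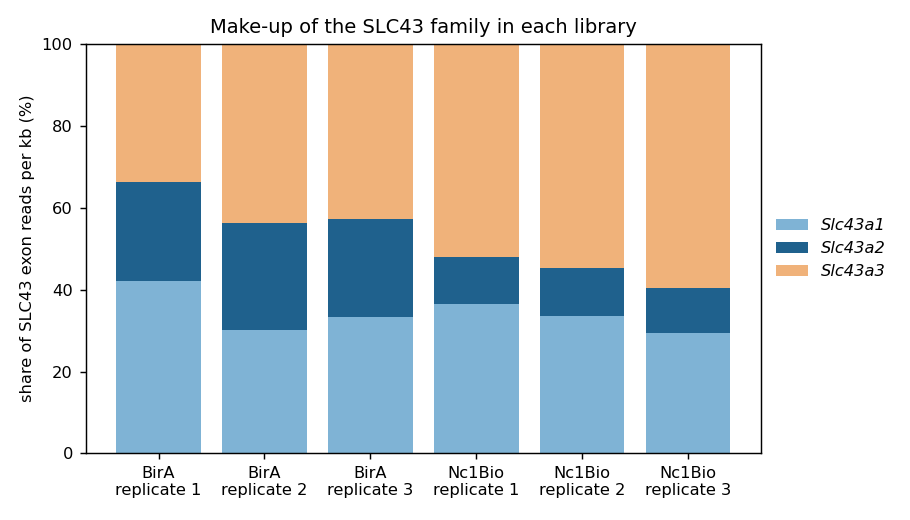
Share of each SLC43 gene in the exon reads per kb of the family (percent, stacked to 100), in each of the 6 libraries. The *Slc43a2* band narrows from 24.1% or more in BirA to 11.8% or less in Nc1Bio, and the *Slc43a3* band widens from 43.8% or less to 51.9% or more. Because the bands are stacked to 100, a narrower *Slc43a2* band by itself widens the others.

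*Slc3a2*, the CD98 heavy chain without which its light chains do not reach the surface, had nearly equal means in the groups. It lies at chr19:8706882-8723369 and had 164 ± 7.81 CPM in BirA and 164 ± 7.08 in Nc1Bio (log2 fold change 0.00060, SE 0.087; edgeR, Benjamini-Hochberg adjusted p = 0.998).

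*Slc7a6*, which encodes y+LAT2 and lies at chr8:106168857-106198706, stood at 83.2, 102 and 92.0 CPM in BirA and at 106, 112 and 110 CPM in Nc1Bio. The groups did not overlap, though the nearest values differed by a factor of only 1.03. The log2 fold change was 0.24 (SE 0.10), with an unadjusted p of 0.0451 and an adjusted p of 0.407 in edgeR, and DESeq2 gave an adjusted p of 0.494.

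*Slc7a5*, which encodes LAT1, could be read only in part from unique reads. Its locus, chr8:121881150-121907694, lies wholly inside the gene model *Gm20388* on the other strand, a model 4434882 bases long that spans 187 genes. Its unique reads were 328, 530 and 637 in BirA and 374, 609 and 525 in Nc1Bio, every one of them an exon-exon junction read, and they made up 12.3% to 19.5% of its total reads. The unique level was 23.7, 33.9 and 44.3 CPM in BirA and 31.1, 46.2 and 40.5 CPM in Nc1Bio, and the groups overlapped (log2 fold change 0.21, SE 0.24; edgeR, Benjamini-Hochberg adjusted p = 0.763). By total gene reads it stood at 103, 141 and 180 CPM in BirA and at 180, 169 and 178 CPM in Nc1Bio. The wide spread was thus in BirA, whose replicate 3 reached the Nc1Bio level (log2 fold change 0.32, SE 0.19; edgeR on total reads, adjusted p = 0.540).

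*Slc7a1*, which encodes the arginine and lysine carrier CAT1, lies at chr5:148327410-148399904. Its level ranged from 106 to 153 CPM in BirA and from 140 to 150 CPM in Nc1Bio. The means of 136 ± 26.5 and 144 ± 4.89 CPM gave a log2 fold change of 0.08 (SE 0.15; edgeR, Benjamini-Hochberg adjusted p = 0.860). Without BirA replicate 1, which alone stood at 106 CPM, the log2 fold change was -0.07.

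None of the glutamine carriers was called. *Slc1a5* (ASCT2, chr7:16781340-16798274) was 102 ± 10.6 CPM in BirA and 117 ± 14.6 in Nc1Bio (log2 fold change 0.19, SE 0.13; edgeR, Benjamini-Hochberg adjusted p = 0.578). *Slc38a1* (SNAT1, chr15:96571418-96642913), which had the most reads of the 10, was 413 ± 37.6 and 394 ± 3.002 CPM (log2 fold change -0.07, SE 0.096; adjusted p = 0.806). *Slc38a2* (SNAT2), its neighbour at chr15:96687392-96699730, stood at 325, 305 and 306 CPM in BirA and at 297, 289 and 297 CPM in Nc1Bio. Its groups did not overlap, but the nearest values differed by a factor of 1.03 and the log2 fold change was -0.09 (SE 0.081; adjusted p = 0.703 in edgeR). *Slc38a2* and *Slc43a2* were the members whose Nc1Bio libraries all lay below the BirA libraries, by factors of 1.03 and 1.79 between the nearest values.

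Across the 10 genes, levels were compared as total exon reads per kb of exon, scaled to the total gene reads of each library with TMM factors. In BirA the order ran from *Slc7a5* (37.95 ± 10.3) over *Slc3a2* (32.9 ± 1.60), *Slc38a2* (24.98 ± 0.981), *Slc1a5* (17.3 ± 1.87), *Slc38a1* (17.0 ± 1.51) and *Slc7a6* (14.1 ± 1.56) to *Slc7a1* (8.33 ± 1.63), *Slc43a3* (7.87 ± 1.04), *Slc43a1* (6.84 ± 1.25) and *Slc43a2* (5.05 ± 0.388). The LAT1 light chain, the CD98 heavy chain and SNAT2 thus came first by total reads, and *Slc43a2* was last in both groups, at 2.62 ± 0.0547 in Nc1Bio. Neighbours in this order that overlapped over the BirA libraries were *Slc7a5* and *Slc3a2*, *Slc1a5* and *Slc38a1*, *Slc38a1* and *Slc7a6*, *Slc7a1* and *Slc43a3*, and *Slc43a3* and *Slc43a1*. The first place of *Slc7a5* rests on its total reads. By unique exon reads per kb, scaled to unique gene reads instead, *Slc7a5* stood at 9.16 ± 2.77 in BirA. That was below *Slc43a1* (9.60 ± 1.75) and above *Slc43a2* (6.78 ± 0.570) only, while *Slc3a2* stood at 46.1 ± 2.25. By total reads the Nc1Bio order differed in that *Slc7a6* (16.7 ± 0.476) came before *Slc38a1* (16.2 ± 0.0867) and *Slc43a3* (12.1 ± 1.21) before *Slc7a1* (8.85 ± 0.265).

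**Figure D4:**
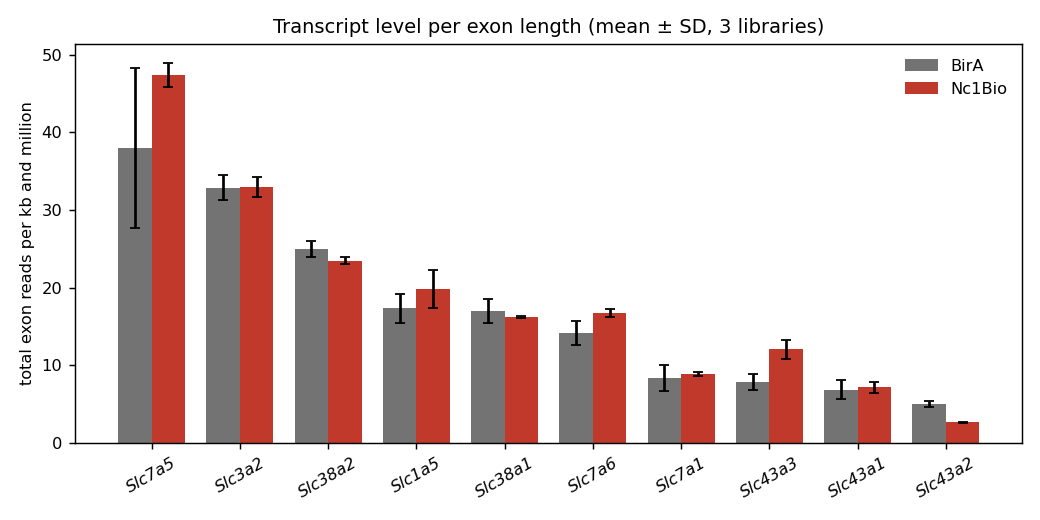
Level of each transporter in library-scaled total exon reads per kb (bars from 0, mean with SD as error bar, 3 libraries each), ordered by the BirA mean. *Slc7a5*, whose place rests on total reads, and *Slc3a2* stand highest in both groups and *Slc43a2* lowest, at 5.05 in BirA and 2.62 in Nc1Bio.

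Other genes of amino acid supply were read from 5 lists. Of 45 further amino acid transporters of the plasma membrane and lysosome, 18 had enough reads to be tested, and 16 of these (88.9%) had a lower and 2 a higher fitted level in Nc1Bio, where 50.4% of all tested genes were lower. Their median log2 fold change was -0.29, and it stayed between -0.42 and -0.20 under all alternatives. None was called by edgeR or DESeq2, and at an unadjusted p under 0.05, 1 was higher and 2 were lower, where 4.31% and 7.66% of all tested genes were. The B cell and the NK and innate-like marker sums were lower in Nc1Bio as well, and their part in this list was not tested. *Slc36a4*, a lysosomal and plasma membrane carrier, was 10.6 ± 2.03 CPM in BirA and 16.8 ± 0.942 in Nc1Bio (log2 fold change 0.66; edgeR, adjusted p = 0.300). *Slc36a1*, the proton-coupled carrier PAT1 of lysosomes, was 12.3 and 7.65 CPM (log2 fold change -0.69; adjusted p = 0.330). *Slc7a8*, the light chain LAT2 of CD98, was 24.8 ± 9.86 and 13.4 ± 5.27 CPM with overlap between the groups (log2 fold change -0.89; adjusted p = 0.403), and without BirA replicate 2 its log2 fold change was -0.56.

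The amino acid response genes driven by ATF4 are the classic targets of amino acid shortage. Of 22 listed genes 16 were tested, 10 higher and 6 lower in Nc1Bio. Their median log2 fold change was 0.13, and 0.04 without Nc1Bio replicate 3, with no call by edgeR or DESeq2. At an unadjusted p under 0.05, 3 were higher (4.31% of all tested genes), namely the serine synthesis enzyme *Phgdh* (204 ± 26.2 CPM in BirA, 261 ± 15.98 in Nc1Bio), the glycine-producing *Shmt2* (346 ± 44.2 and 425 ± 28.6) and the mitochondrial folate enzyme *Mthfd2* (83.1 ± 11.1 and 104 ± 12.8). By the same measure 2 were lower (7.66% of all tested genes), *Atf5* (17.3 ± 3.52 and 10.8 ± 3.21 CPM) and the mTORC1 inhibitor *Ddit4*. *Ddit4* overlapped between the groups and its BirA mean rested on replicate 1, with 211, 48.0 and 70.7 CPM in BirA and 62.2, 44.5 and 37.5 in Nc1Bio. Its log2 fold change was -1.19, and -0.30 without that library.

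All 20 cytosolic aminoacyl-tRNA synthetases, which load amino acids on their tRNAs, were tested, and 18 were higher and 2 lower in Nc1Bio, where 50.4% of all tested genes were lower. The median log2 fold change was 0.14 and ranged from 0.05 to 0.20 over the alternatives, with 0.06 when BirA replicate 1 was left out. None was called by edgeR or DESeq2, 5 were higher and 0 lower at an unadjusted p under 0.05 (4.31% and 7.66% of all tested genes), and for 7 the Nc1Bio libraries all lay above the BirA libraries (8.45% of all tested genes). The leucine enzyme *Lars* was 99.6 ± 13.2 CPM in BirA and 127 ± 7.17 in Nc1Bio, *Kars* for lysine 303 ± 17.4 and 361 ± 7.01, and *Rars* for arginine 142 ± 9.67 and 171 ± 6.83. Their log2 fold changes were 0.35, 0.25 and 0.26, with edgeR adjusted p-values of 0.331, 0.343 and 0.349.

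Genes by which mTORC1 senses amino acids were even on both sides. Of 36 listed genes 33 were tested, 17 higher and 16 lower, and their median log2 fold change was 0.0026, from -0.03 without BirA replicate 1 to 0.08 without BirA replicate 2. edgeR called none, and at an unadjusted p under 0.05, 1 was higher and 2 were lower, where 4.31% and 7.66% of all tested genes were. *Sesn3*, a sestrin of the family that restrains mTORC1 when leucine is scarce, stood apart, at 131, 93.2 and 90.9 CPM in BirA and 42.1, 64.3 and 54.3 CPM in Nc1Bio. The groups did not overlap, and the log2 fold change of -0.97 (SE 0.20) was close in size to that of *Slc43a2*. edgeR gave *Sesn3* an adjusted p of 0.164 and DESeq2 one of 7.6e-05, and edgeR without a low-count filter gave 0.01004. *Sesn3* was the 1 call by DESeq2 among the 33 tested genes of this list. Of all 13129 genes with an adjusted p, DESeq2 called 0.32% higher and 2.16% lower. The NK and B cell marker sums separated the groups here too, and their part was not tested. The log2 fold change was -0.36 for *Sesn1*, or -0.17 without BirA replicate 1, with an adjusted p of 0.417 in edgeR, and 0.26 for *Seh1l*, a subunit of the GATOR complex, with an adjusted p of 0.390.

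All 15 enzymes and regulators of branched-chain amino acid and glutamine breakdown were tested, 9 higher and 6 lower in Nc1Bio. Their median log2 fold change was 0.10, but 0.04 without BirA replicate 3 and 0.05 without Nc1Bio replicate 3, with no call by edgeR or DESeq2. At an unadjusted p under 0.05, 4 were higher and 0 lower, where 4.31% and 7.66% of all tested genes were. The kinase *Bckdk*, which switches off branched-chain oxidation, was 77.4 ± 11.95 CPM in BirA and 97.5 ± 3.46 in Nc1Bio, and *Dbt*, a core subunit of the complex it controls, was 31.2 ± 2.34 and 38.8 ± 2.28. Their log2 fold changes were 0.33 and 0.31, with edgeR adjusted p-values of 0.377 and 0.385.

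**Figure D5:**
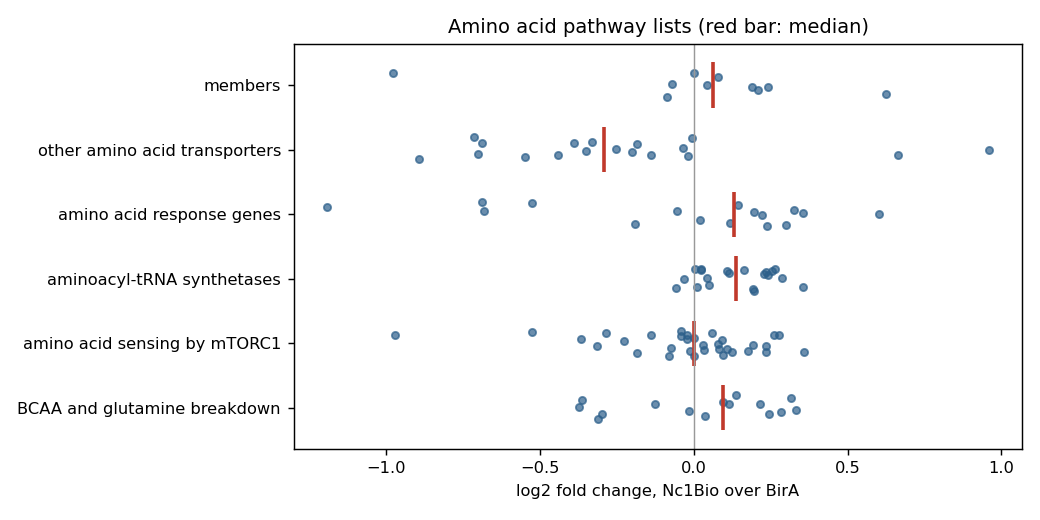
Log2 fold change, Nc1Bio over BirA, of each tested gene of the 10 transporters and of the 5 amino acid lists (points, spread vertically at random), with the list median as a red bar. The medians lie at -0.29 for the other transporters, 0.14 for the aminoacyl-tRNA synthetases and 0.13 for the amino acid response genes, and single points far from these include *Slc43a2*, *Sesn3* and *Ddit4* on the low side.

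The genes whose level over the 6 libraries was most like that of *Slc43a2* were sought by Pearson's r of log2(CPM + 0.5) among 9382 genes with a mean of at least 5 CPM. With 6 libraries in 2 groups, such an r mainly follows a shared difference between the groups, and it is given as a description. The 5 of highest r were *Gnaq* (0.995), *Tnik* (0.992), *Hif1a* (0.989), *Inpp1* (0.988) and *Ankrd44* (0.987). Their mean levels were lower in Nc1Bio, for instance *Tnik*, a kinase of the Wnt pathway, with 48.0 CPM in BirA and 30.8 in Nc1Bio, and *Hif1a*, the oxygen-regulated transcription factor, with 40.4 and 31.2 CPM. The 5 of lowest r were *Mpi* (-0.999), *Sord* (-0.990), *Actr8* (-0.988), *Nt5dc2* (-0.988) and *Cln6* (-0.983). *Mpi*, an enzyme of mannose metabolism, went from 20.6 to 22.5 CPM, and *Sord*, the sorbitol dehydrogenase, from 84.1 to 114 CPM. Among the other transporters r with *Slc43a2* ran from -0.87 for *Slc43a3* to 0.77 for *Slc38a2*.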

How the data were processed

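RNA of DN thymocytes was sequenced from 6 libraries. Per the methods, reads were trimmed with cutadapt, aligned with STAR to GRCm38 and counted with featureCounts. The deposited tables hold whole-number counts per gene, uniquely assigned or total, for the gene, its exons and its introns. featureCounts does not write this layout, and the sources used here name neither the program behind it nor its use of strand. RPKM and TPM columns were not used.

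Unique gene reads were tested in edgeR 4.0.16 (R 4.3.3): filterByExpr (12224 of 41457 genes), TMM scaling, the quasi-likelihood test in its default mode with genotype as the single term, and Benjamini-Hochberg adjustment over all tested genes, called under 0.05. The steps were tested on simulated data. CPM use TMM-scaled library sizes, and each SE was taken as the fitted log2 fold change over the root of its F statistic. Counts are reads, not molecules.

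Alternatives were RLE scaling, no low-count filter, DESeq2 1.42.0, a filter of 1 CPM in 3 libraries, voom in limma 3.58.1, the non-legacy edgeR mode, the 3 other count columns, a replicate block, leaving out single libraries, leaving out BirA replicate 1 and Nc1Bio replicate 3 together, and the threshold of the study (adjusted p under 0.01 with a log2 fold change beyond 0.5 either way). DESeq2 on total gene reads was added after seeing the data, since the unique reads of *Slc7a5* are all junction reads.

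The 10 genes, the lists and the alternatives were chosen with earlier results of these data known. All 10 were named, with the value of every library for those whose groups did not overlap or whose unadjusted p was under 0.05. Of each list up to 3 genes of lowest p in each direction were named if that p was under 0.05, and 1 gene this gives is not reported here. The genes most like *Slc43a2* were the 5 of highest and 5 of lowest r, predicted gene models left out. *Slc43a1*, *Slc7a5*, *Gm45606*, *Gm20388* and the marker genes were given library values or names after their values were seen. Promoter windows came from RefSeq (GRCm38.p6); protein sequences and the promoters of *Slc43a3*, *Slc7a5*, *Slc1a5* and *Slc38a1* were not used here.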

Additional observations from a re-analysis of the deposited data

How the results depend on the processing

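*Slc43a2* kept its direction under all 18 alternatives, with log2 fold changes of -1.03 to -0.90 when 1 library was left out. It was chosen for its fall in these same 6 libraries, so this describes the processing and is no test of the fall. Counts of called genes depended on the tool and the filter. Against 1 gene called higher and 0 lower, no low-count filter gave 11 and 145, DESeq2 42 and 284, DESeq2 on total gene reads 44 and 301, and the threshold of the study 0 higher in edgeR and 16 and 167 in DESeq2. Leaving out BirA replicate 1 and Nc1Bio replicate 3 together gave 2 lower, and leaving out single libraries 0 to 1 in each direction. Of the transporters besides *Slc43a2*, DESeq2 called 1 on unique and 1 on total gene reads, *Slc43a3* each time, and limma-voom called 0. The cause was not tested. With the replicate number as a block, edgeR called 1 gene higher and 1 lower and 0 of these transporters. Same-numbered libraries correlated at 0.335, 0.118 and -0.0991 in their deviations, and differently numbered ones at -0.387 to 0.253. The value of 0.335 was the highest of all, so these correlations do not settle whether the numbers are pairs. The main fit did not treat them as pairs.

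Signs turned for genes near 0. *Slc43a1* ran from -0.046 to 0.21 with 1 library left out, *Slc3a2* from -0.033 to 0.031 and *Slc7a1* from -0.075 to 0.17. *Slc3a2* was -0.00032 by total exon reads and -0.00010 by DESeq2 on total reads, and without BirA replicate 1 and Nc1Bio replicate 3 *Slc7a5* was -0.017 and *Slc7a1* -0.058. Depth limits the intron reads of *Slc43a2*, 66 in BirA and 20 in Nc1Bio, to a description.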
